A study of Mus musculus with 4 samples.

Results

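A set of 10 genes whose products fill neutrophil granules or the neutrophil cytosol were read in RNA-Seq libraries of sorted hematopoietic stem cells (HSCs). They were taken by symbol from 19354 listed genes, and all 10 members were found. The 4 primary granule genes are Mpo, Elane, Prtn3 and Ctsg, and the 6 late neutrophil genes are S100a8, S100a9, Ltf, Camp, Ngp and Lcn2. Of the 10 members, 9 had a mean of at least 1 CPM, a unit that scales reads to a common library total, and were among the 15895 genes tested. Ctsg, with a mean of 0.780 CPM, was not.

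Neutrophils make their granules in order as they mature. Promyelocytes fill the primary, or azurophil, granules with myeloperoxidase and a family of serine proteases, myelocytes and later cells then fill the secondary and tertiary granules with lactoferrin, cathelicidin and lipocalin, and the S100a8 and S100a9 proteins collect in the cytosol of maturing cells. HSCs lie upstream of all these stages, and low transcript levels of some primary granule genes are known in early progenitors, whereas the late genes are usually taken as marks of maturing neutrophils.

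The study compared Id2+/+ with Id2Δ/Δ HSCs to learn what is lost with ID2, an inhibitor of E proteins. Both genotypes carried Mx1-Cre, an interferon-inducible transgene that also acts outside blood cells, and both received pIpC, so the controls share Cre and the interferon response. HSCs of mice aged 8 to 16 weeks on a C57BL/6 background were pooled 2 weeks later, from 14 Id2+/+ mice and from 15 mice whose floxed Id2 alleles had been deleted, over 2 experiments. The sort took LSK FLT3- CD48- CD150+ cells after staining for lineage proteins that include Mac-1 and Gr-1 of myeloid cells, and gave 2 libraries of each genotype, called replicates 1 and 2 here.

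The authors deposited log2 CPM values, quantile-normalized so that the 4 libraries share a median of 3.92. Whole reads were recovered below 40 CPM, each possibly off by 1, and library depths ranged from 14200000 to 18900000 reads. The deleted gene itself, Id2, was read 93 and 98 times in the controls and 0 times in either Id2Δ/Δ library. All 16 HSC markers of a list were present. Their summed level was 6618.5 and 6673.6 CPM in Id2+/+ replicates 1 and 2 and 5039.3 and 5758.6 CPM in Id2Δ/Δ replicates 1 and 2. Of 22 mature neutrophil genes, 11 had no row among the values used, including Ly6g, which encodes a target of the Gr-1 antibody, and the Stfa1, Stfa2 and Stfa3 genes. The labels do not say which mice or which experiment went into a library, so p-values below measure only the spread between these libraries. With 2 libraries a side, the smallest two-sided p that exact permutation allows is 0.333.

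The late genes set the pattern. All 6 were at their highest in Id2+/+ replicate 1, followed by Id2Δ/Δ replicate 1, Id2+/+ replicate 2 and Id2Δ/Δ replicate 2, an order that 3.29% of all tested genes share. Their sum fell along this order from 135 CPM through 75.3 and 43.1 to 15.7 CPM. No primary granule gene followed that order, and their sum was 127 to 187 CPM, with Id2Δ/Δ replicate 1 at the top. No member passed the test between the genotypes, as detailed after the members. In bulk libraries, fewer cells of a type and less RNA per cell cannot be told apart.

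The promoters of 2 late and 2 primary granule genes are shown because they differ in the short motifs of granulocyte transcription factors. C/EBP proteins, among them the C/EBPε needed for secondary granules, bind sites of the form TTGCNNAA, and PU.1 binds around GAGGAA. In the 300 bases from 250 before to 50 after each RefSeq start (GRCm38.p6), both strands were searched, and matches are in capitals in a sequence otherwise in lower case. No match of these motifs overlapped another in the 10 members. The windows are Ngp at chr9:110419558-110419857 on the plus strand, Lcn2 at chr2:32387690-32387989 on the minus strand, Elane at chr10:79886062-79886361 on the plus strand and Prtn3 at chr10:79879417-79879716 on the plus strand.
Ngp: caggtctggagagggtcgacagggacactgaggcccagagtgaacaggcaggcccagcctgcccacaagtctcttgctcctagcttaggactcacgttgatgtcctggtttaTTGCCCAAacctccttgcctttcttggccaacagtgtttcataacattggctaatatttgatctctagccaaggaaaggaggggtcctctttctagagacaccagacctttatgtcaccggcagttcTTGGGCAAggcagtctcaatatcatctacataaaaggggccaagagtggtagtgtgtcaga
Lcn2: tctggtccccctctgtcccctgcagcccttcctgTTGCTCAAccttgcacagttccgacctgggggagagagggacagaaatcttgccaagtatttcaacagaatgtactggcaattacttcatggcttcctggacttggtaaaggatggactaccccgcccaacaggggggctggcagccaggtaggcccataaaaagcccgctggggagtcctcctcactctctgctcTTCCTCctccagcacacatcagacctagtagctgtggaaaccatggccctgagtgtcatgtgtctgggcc
Elane: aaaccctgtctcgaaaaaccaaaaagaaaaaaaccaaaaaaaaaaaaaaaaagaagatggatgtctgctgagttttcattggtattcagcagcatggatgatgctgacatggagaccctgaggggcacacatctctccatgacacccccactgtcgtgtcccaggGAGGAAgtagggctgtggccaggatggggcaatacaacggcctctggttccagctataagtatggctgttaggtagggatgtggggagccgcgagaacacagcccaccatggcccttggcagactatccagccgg
Prtn3: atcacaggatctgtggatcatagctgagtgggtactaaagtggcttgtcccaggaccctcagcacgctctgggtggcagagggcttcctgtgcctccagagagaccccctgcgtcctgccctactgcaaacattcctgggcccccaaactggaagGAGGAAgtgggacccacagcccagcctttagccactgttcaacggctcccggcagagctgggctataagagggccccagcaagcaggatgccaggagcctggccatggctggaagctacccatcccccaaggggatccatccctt

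In Ngp, the capitals mark 2 C/EBP matches, whose first bases lie at -138 and -11 from the start. In Lcn2 they mark a C/EBP match at -216 and a PU.1 match, read on the other strand, at -20. Elane and Prtn3 hold no C/EBP match and have PU.1 matches at -85 and -95. Over the 10 members, C/EBP matches were found in 4, all of them late genes (S100a9, Ltf, Ngp and Lcn2), beside 10.8% of 32851 mouse promoters. PU.1 matches were found in 7, which are the 4 primary granule genes with S100a8, Ltf and Lcn2, beside 28.3% of promoters. The GATA letters AGATAA were in S100a9 and Ltf (11.2% of promoters) and TATAAA in Ctsg, S100a8 and S100a9 (13.6% of promoters). Camp held none of these 4 motifs. A match describes the letters in this window and is not a measured binding site.

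**Figure D1:**
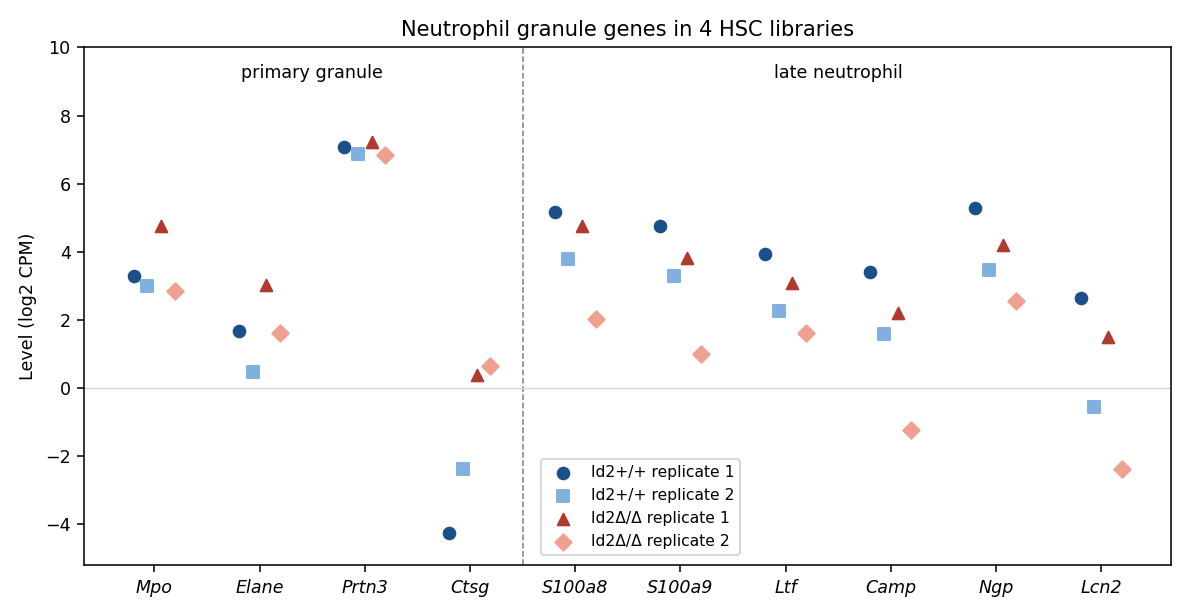
Level of each gene, in log2 CPM on the vertical axis, with one symbol for each of the 4 libraries; the dashed line divides primary granule from late neutrophil genes. Prtn3 sits near 7 in all libraries, Ctsg is the one gene with both Id2Δ/Δ libraries above both Id2+/+ libraries, and each late gene is highest in Id2+/+ replicate 1 and lowest in Id2Δ/Δ replicate 2.

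Among the primary granule genes, Prtn3 (ENSMUSG00000057729.12, GRCm38 chromosome 10, 79874476 to 79883174) encodes proteinase 3. It stood at 7.08 and 6.88 log2 CPM in Id2+/+ replicates 1 and 2 and at 7.23 and 6.84 in Id2Δ/Δ replicates 1 and 2. The genotypes overlapped, and the library means of 6.98 ± 0.14 and 7.04 ± 0.27 (SD, n = 2 each) were closer than the replicates. Its difference was 0.06 on the log2 scale (95% interval -0.32 to 0.44, adjusted p = 0.961 from limma). Prtn3 alone made up 80.4% to 92.4% of the summed CPM of the primary granule genes. Its annotated exons share 159 bases with those of Plppr3 on the opposite strand, which stood at 7.66 to 7.89 log2 CPM, and the sources used here do not say whether strand entered the counting.

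Elane (ENSMUSG00000020125.6, chromosome 10, 79886247 to 79888215), which encodes neutrophil elastase, lies 3.07 kb from Prtn3 with no annotated gene between them. It had 47 and 22 reads in Id2+/+ replicates 1 and 2 and 143 and 52 in Id2Δ/Δ replicates 1 and 2, or 1.68, 0.46, 3.03 and 1.60 log2 CPM. The Id2Δ/Δ library was higher within each replicate number, by 1.35 and 1.14, yet Id2Δ/Δ replicate 2 fell just below Id2+/+ replicate 1, so the genotypes overlapped. The difference of 1.25 had a standard error of 0.65 (adjusted p = 0.910 from limma). Prtn3, its neighbor, moved by 0.15 and -0.04 in the same pairs of libraries.

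Mpo (ENSMUSG00000009350.13, chromosome 11, 87793581 to 87804413) encodes myeloperoxidase, the most abundant protein of the primary granule. Its 476 reads in Id2Δ/Δ replicate 1 stood against 142, 129 and 128 in Id2+/+ replicates 1 and 2 and Id2Δ/Δ replicate 2. In log2 CPM these are 4.76 against 3.29, 3.01 and 2.84. One library was therefore high and the other 3 lay close together. The difference between genotypes was 0.65 (standard error 0.56, adjusted p = 0.910 from limma), and it became -0.32 without Id2Δ/Δ replicate 1 and 1.61 without Id2Δ/Δ replicate 2. Gm11505, annotated on the opposite strand within Mpo and sharing 512 exonic bases with it, was also highest in Id2Δ/Δ replicate 1, with 165 reads against 45 to 72 in the others, and without strand the reads of the shared bases cannot be assigned to either gene.

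Ctsg (ENSMUSG00000040314.1, chromosome 14, 56099881 to 56102574), which encodes cathepsin G, was close to the limit of detection. It had 1 and 4 reads in Id2+/+ replicates 1 and 2 and 23 and 26 in Id2Δ/Δ replicates 1 and 2. Up to 3 reads are allowed by a count of 0, which is 0.212 CPM in Id2+/+ replicate 1 and 0.192 CPM in Id2+/+ replicate 2. Both Id2Δ/Δ libraries lay above both Id2+/+ libraries. This holds for Ctsg alone among the 10 members, beside 19% of tested genes with Id2Δ/Δ libraries above and 15.8% with them below. Over the summed reads, 49 against 5, the ratio per depth was 7.98 (95% interval 3.20 to 25.7, exact, for counting error only). With no filter on low values Ctsg had an unadjusted p under 0.05 in limma, as did 1.91% of genes in that direction, but the Id2+/+ side of that fit rests on 1 and 4 reads, and its difference is not given.

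Among the late genes, S100a8 and S100a9 encode the subunits of calprotectin and lie 22.6 kb apart on chromosome 3 with no annotated gene between them. S100a8 (ENSMUSG00000056054.9, 90668978 to 90670035) had 513 and 216 reads in Id2+/+ replicates 1 and 2 and 473 and 71 in Id2Δ/Δ replicates 1 and 2. S100a9 (ENSMUSG00000056071.12, 90692632 to 90695721) had 382, 155, 252 and 34 reads in the same order. Replicate 2 was the lower library of both genotypes for both genes, and Id2Δ/Δ replicate 1 lay between the Id2+/+ libraries. In log2 CPM, S100a8 was at 5.18, 3.79, 4.75 and 2.04, a difference of -1.09 (standard error 0.82). S100a9 was at 4.76, 3.29, 3.82 and 1.00, a difference of -1.61 (standard error 0.87). Both had an adjusted p of 0.910 from limma, and without Id2Δ/Δ replicate 2 S100a8 turned to 0.26 and S100a9 came to -0.20.

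Ltf, Camp and Ngp all lie on chromosome 9 but far apart, with 570 kb between Camp and Ngp and 596 kb between Ngp and Ltf. Ngp (ENSMUSG00000032484.8, 110419747 to 110423012), which encodes neutrophilic granule protein, had the most reads of the late genes in Id2+/+ replicate 1. It had 555 and 176 reads in Id2+/+ replicates 1 and 2 and 327 and 104 in Id2Δ/Δ replicates 1 and 2, or 5.30, 3.47, 4.20 and 2.55 log2 CPM. Ltf (ENSMUSG00000032496.7, 111019271 to 111042767), which encodes the iron-binding lactoferrin, had 215, 77, 147 and 53 reads in that order, or 3.92, 2.27, 3.07 and 1.63 log2 CPM. These 2 genes kept the most even steps, and the Id2Δ/Δ library was below its Id2+/+ counterpart by 1.10 and 0.91 for Ngp and by 0.85 and 0.64 for Ltf. Camp (ENSMUSG00000038357.10, 109847379 to 109849617), which encodes the antimicrobial cathelicidin, was steeper, with 152, 47, 83 and 7 reads, or 3.40, 1.57, 2.22 and -1.24 log2 CPM. The genotypes overlapped for each of them. The differences were -1.01 for Ngp and -0.74 for Ltf, with standard errors of 0.68 and 0.65, and Camp was 3.99-fold lower with a standard error of 1.11 on the log2 scale. All 3 had an adjusted p of 0.910 from limma. Without Id2+/+ replicate 1, Ltf turned to 0.08, Ngp came to -0.09 and Camp to -1.09, and without Id2Δ/Δ replicate 2 Camp came to -0.27 and Ngp to -0.19.

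Lcn2 (ENSMUSG00000026822.14, chromosome 2, 32384633 to 32388252) encodes lipocalin 2, a binder of bacterial siderophores, and was the lowest of the late genes. It had 90 and 11 reads in Id2+/+ replicates 1 and 2 and 51 and 3 in Id2Δ/Δ replicates 1 and 2, or 2.64, -0.55, 1.51 and -2.36 log2 CPM. The drop from replicate 1 to 2 was large in both genotypes, 9.03-fold (95% interval 4.81 to 18.7) in Id2+/+ and 18.1-fold (5.85 to 90.6) in Id2Δ/Δ by reads per depth. Against this, the difference between genotypes of -1.47 had a standard error of 1.47 (adjusted p = 0.916 from limma), and it turned to 0.13 without Id2+/+ replicate 1 and to 0.47 without Id2Δ/Δ replicate 2.

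Levels were then compared per length, using the longest annotated transcript. In log2 CPM per kb, as mean and SD over the 4 libraries, Prtn3 led at 6.97 (SD 0.18), followed by S100a8 at 4.95 (SD 1.39), S100a9 at 4.16 (SD 1.60) and Ngp at 3.59 (SD 1.16). Mpo at 2.02 (SD 0.88), Camp at 1.89 (SD 1.97), Elane at 1.72 (SD 1.05) and Ltf at 1.27 (SD 0.99) came next. Lcn2 at -0.15 (SD 2.22) and Ctsg at -1.40 (SD 2.34) were last. Among neighbors in this order, Prtn3 and S100a8, and Ngp and Mpo, were further apart than the SD of either gene, and the other 7 neighboring pairs were not. The order changed with the library, since the level per kb was above that of Mpo for 6 late genes in Id2+/+ replicate 1, 4 in Id2+/+ replicate 2 and 3 in each Id2Δ/Δ library. The median log2 CPM per kb was higher for the late than for the primary granule genes in 3 libraries and lower in Id2Δ/Δ replicate 2.

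**Figure D2:**
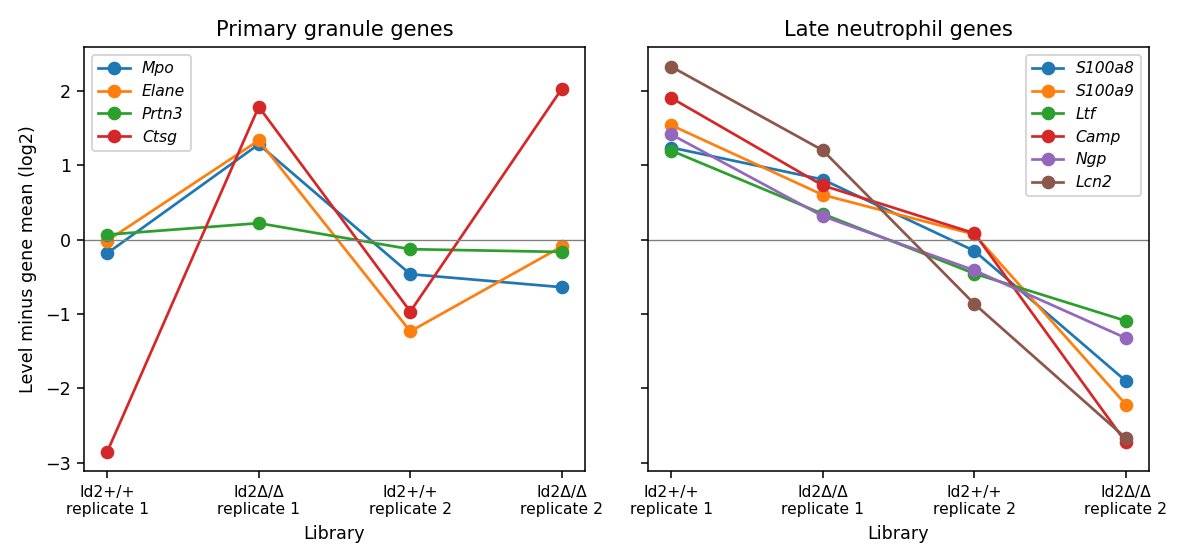
Level of each gene minus its own mean over the 4 libraries, in log2 units, with the libraries placed in the order shared by the late genes. The 6 late genes step down together from left to right, whereas Mpo and Elane peak in Id2Δ/Δ replicate 1, Ctsg is high in both Id2Δ/Δ libraries and Prtn3 stays within 0.39 from lowest to highest.

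Primary and late genes were then set against each other within each library. The mean log2 CPM of the 4 primary granule genes minus that of the 6 late genes was -2.25 and -0.31 in Id2+/+ replicates 1 and 2 and 0.59 and 2.38 in Id2Δ/Δ replicates 1 and 2. Both Id2Δ/Δ libraries lay above both Id2+/+ libraries, with a rise of 2.76 between the means, beside an SD between replicates of 1.32. Matched by replicate number, the rise was 2.84 and 2.69, but the labels do not say that libraries of the same number form a pair. Part of this came from Ctsg, the gene near the detection limit. Without it the values were -0.18, 1.15, 1.75 and 3.16, in the same library order, and the rise was 1.97. With each library left out in turn, the rise with all 10 genes ranged from 1.79 without Id2+/+ replicate 1 to 3.74 without Id2+/+ replicate 2. It was 1.66 with a pseudocount of 1 CPM and 1.59 over the members with a mean of at least 10 CPM. No p-value is given for this score, since it is a score over chosen genes.

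The same contrast was read on the linear scale. The summed late genes made up 0.909 of the primary sum in Id2+/+ replicate 1, 0.338 in Id2+/+ replicate 2, 0.403 in Id2Δ/Δ replicate 1 and 0.124 in Id2Δ/Δ replicate 2. Here the genotypes overlapped, because Prtn3 dominates the primary sum. Leaving out Prtn3 was added after seeing the data. The ratio of late to primary CPM was then 10.3 and 4.48 in Id2+/+ replicates 1 and 2. It was 2.06 and 1.34 in Id2Δ/Δ replicates 1 and 2, without overlap. The primary sum without Prtn3 was mostly Mpo, at 27.1 CPM in Id2Δ/Δ replicate 1 and 7.14 to 9.79 CPM in the other libraries. S100a8 and Ngp were the main parts of the late sum in every library, at 26.2% to 35.8% and 24.3% to 37.4% of it. S100a9 made up 18.7% to 22.6% in 3 libraries and 12.7% in Id2Δ/Δ replicate 2, whereas Ltf made up 11.2% to 11.3% in 3 libraries and 19.7% in Id2Δ/Δ replicate 2. Camp and Lcn2 had their highest shares, 7.83% and 4.63%, in Id2+/+ replicate 1 and their lowest, 2.70% and 1.24%, in Id2Δ/Δ replicate 2.

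The comparison of genotypes gave lower values for all 6 late genes and higher values for all 4 primary granule genes. The median difference was -1.28 for the late genes and 0.95 for the primary granule genes, beside 0.01 for all tested genes. None of the 9 tested members passed an adjusted p of 0.05 in limma, and 0% of the 15895 tested genes did. At an unadjusted p under 0.05 the members also numbered 0, beside 273 genes higher (1.72%) and 469 genes lower (2.95%) in Id2Δ/Δ HSCs. The late median was -0.10 without Id2Δ/Δ replicate 2 and -0.24 without Id2+/+ replicate 1, and -2.74 without Id2Δ/Δ replicate 1 and -2.14 without Id2+/+ replicate 2. The primary median ranged from 0.20 without Id2Δ/Δ replicate 1 to 1.78 without Id2Δ/Δ replicate 2, and was 0.65 without Ctsg and 0.35 over Mpo and Prtn3, which alone have a mean of at least 10 CPM.

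Within replicate numbers the late genes kept 1 direction. The Id2Δ/Δ library lay below the Id2+/+ library of the same number for 6 of 6 late genes in both pairs, which is seen for 23.7% of all tested genes. For the primary granule genes, Elane and Ctsg were higher in both pairs, beside 27.3% of tested genes. Mpo went from 1.47 in replicate 1 to -0.18 in replicate 2. Whether a number stands for a shared experiment or day is not in the labels. Across numbers, Id2Δ/Δ replicate 1 lay above Id2+/+ replicate 2 for all 6 late genes, so the single direction depends on matching by number. The 6 late genes also move together across libraries, so they do not count as 6 separate observations.

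**Figure D3:**
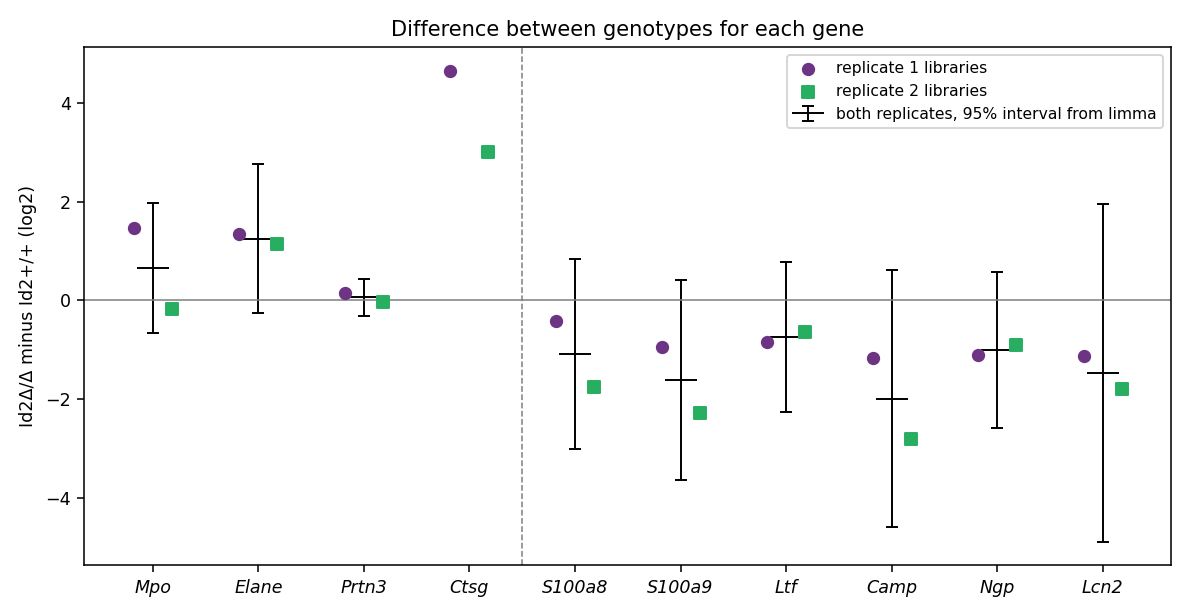
Difference between Id2Δ/Δ and Id2+/+ libraries, in log2 units, for each gene; the black bar is the mean difference with the 95% interval of limma (none for Ctsg, which was not tested), and the colored points are the differences within replicate 1 and within replicate 2. All 12 points of the late genes lie below 0, and every interval includes 0. The labels do not say that libraries of the same number form a pair.

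For the late genes, replicates differed by more than genotypes did in the median. Replicate 1 was above replicate 2 in both genotypes for all 6 late genes and for Mpo, Elane and Prtn3, beside 26.1% of tested genes. For the late genes it exceeded replicate 2 by a median of 1.74 in Id2+/+ and 2.77 in Id2Δ/Δ HSCs on the log2 scale, from 1.39 for S100a8 to 3.19 for Lcn2 in the controls. The range of a late gene over the 4 libraries, 4.90-fold for Ltf and 24.9-fold for Camp with Lcn2 wider still, exceeded that of 94.2% to 99.6% of the 5388 genes with a mean of 2 to 21 CPM. For Prtn3 the range was 1.31-fold, and 36.9% of tested genes had a smaller one.

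**Figure D4:**
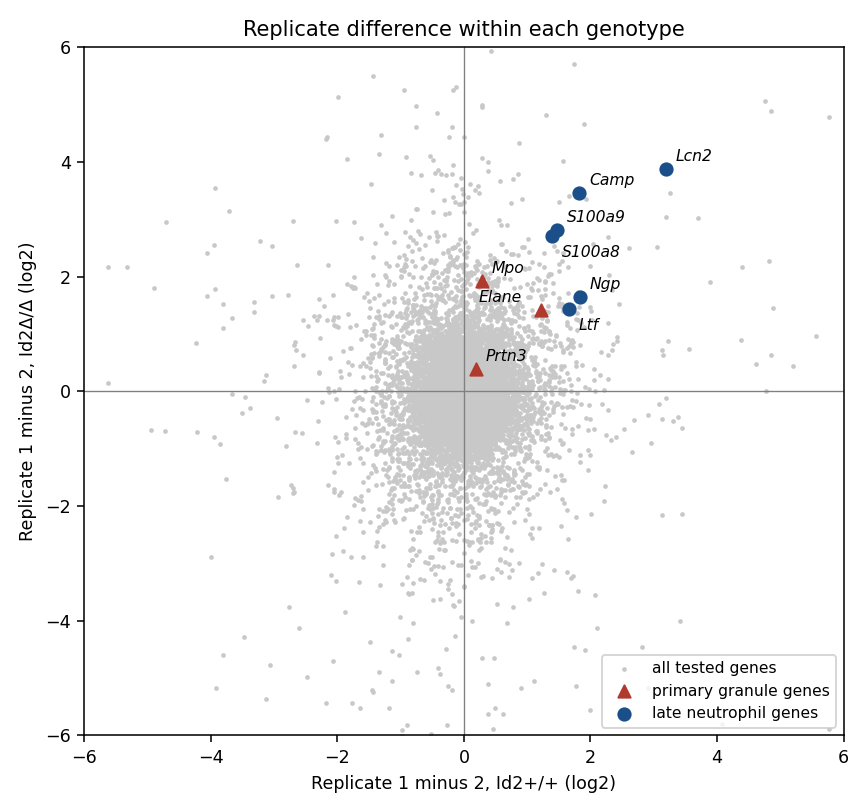
Replicate 1 minus replicate 2 in Id2+/+ HSCs (horizontal axis) against the same in Id2Δ/Δ HSCs (vertical axis), both in log2 units; grey points are all tested genes, except 29 beyond the axis limits, and colored points the 9 tested members. The 6 late genes lie at the upper right, above 1.3 on both axes, and Prtn3 lies near the center of the grey points.

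Other genes of the same granules were read from lists, of which 13 of 14 primary granule and promyelocyte genes had a row and 11 were tested. None of these passed an unadjusted p of 0.05 in either direction, and their median difference was 0.09. The 3 most abundant were Srgn, the proteoglycan that packs granule proteins, Cd63, a granule membrane protein, and Calr, a chaperone, with differences of 0.11, 0.05 and 0.02. These 3 genes serve many cell types. Among 13 tested genes of secondary and tertiary granules the median was 0.06, with 0 higher and 3 lower at an unadjusted p under 0.05, beside 2.95% of tested genes. The 3 are named after their values were seen. Cybb, the catalytic subunit of the phagocyte oxidase, had 71 and 29 reads in Id2+/+ replicates 1 and 2 and 1 and 9 in Id2Δ/Δ replicates 1 and 2. It passed the filter only through the Id2+/+ libraries, where it is high, so its call is not read as a result. Chil3 and Itgb2, a chitinase-like protein and the β2 integrin, had differences of -1.60 and -0.40. Anxa1 and Cyba, with Itgb2 the most abundant of that list, differed by 0.09 and 0.07. Replicate 1 was above replicate 2 in both genotypes for 7 of these 13 genes, beside 26.1% of tested genes. Their median excess was 0.31 in Id2+/+ and 0.60 in Id2Δ/Δ HSCs on the log2 scale. The same held for 3 of the 11 primary granule and promyelocyte genes, with medians of -0.02 and 0.10.

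The library order of the late genes was shared by 0 of the 11 primary granule and promyelocyte genes and by 1 of the 13 secondary and tertiary granule genes, beside 3.29% of tested genes. The 1 gene is Hp, encoding haptoglobin, a protein stored in secondary granules. Hp had 47 and 13 reads in Id2+/+ replicates 1 and 2 and 34 and 7 in Id2Δ/Δ replicates 1 and 2. It was also 1 of the 5 genes nearest to the mean late profile, by Euclidean distance of centered log2 values over the 4 libraries, at a distance of 0.60. The other 4 were Gm18212 (0.42), Kcnmb1 (0.47), Gm42483 (0.56) and Gm38252 (0.66). Nearest to the mean primary profile were Fam72a (0.21), Ap1m2 (0.22), Ttc39c (0.29), Gm45495 (0.29) and Pkib (0.31). With 4 points, many profiles can lie this close.

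Most genes of mature neutrophils were low or had no row. Of the 11 with a row, 6 were tested, with a median difference of 0.02 and 0 past an unadjusted p of 0.05. Of these 6, 3 were higher in replicate 1 of both genotypes, beside 26.1% of tested genes. The list was summed to 211 to 239 CPM per library, most of it from Csf3r, the receptor for granulocyte colony-stimulating factor, at 6.53 to 6.97 log2 CPM, and Padi4, an arginine deiminase, at 6.67 to 6.80. The next, the chemokine gene Cxcl2, had 13 to 67 reads. Retnlg, a marker of mature neutrophils named after its values were seen, had 28 and 11 reads in Id2+/+ replicates 1 and 2 and 0 in both Id2Δ/Δ libraries, where a count of 0 allows up to 3 reads. The list did not share this direction, since 3 of the 6 tested genes were higher and 3 lower in Id2Δ/Δ HSCs. Cxcr2, also named after its values were seen, had 37 and 13 reads in Id2+/+ replicates 1 and 2. In Id2Δ/Δ replicates 1 and 2 it had 54 and 15. Monocyte and macrophage markers, 11 of 12 with a row, were summed to 59.1 and 43.2 CPM in Id2+/+ replicates 1 and 2 and to 57.5 and 44.3 CPM in Id2Δ/Δ replicates 1 and 2. This sum was higher in replicate 1 of both genotypes, but single markers were mixed. Of the 5 tested, 3 were higher in replicate 1 of both genotypes, beside 26.1% of tested genes. Ccr2 and F13a1 were not, and Ccr2 had 2 and 20 reads in Id2+/+ replicates 1 and 2. None of the 5 tested passed an unadjusted p of 0.05. The paper reports that single-cell RNA-Seq of its purified HSCs showed low numbers of contaminating neutrophils and red blood cells. Its authors recognized these cells by genes of their lineages and removed them by clustering. Whether such cells entered the bulk libraries was not tested. The part of neutrophils, monocytes or macrophages in the levels of the late genes was not tested either.

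Among regulators of granulocyte formation, 13 of 14 were tested and 0 passed an unadjusted p of 0.05, and the median difference was -0.11. The 3 most abundant were Myb and Runx1, transcription factors of progenitors, at -0.08 and -0.17, and Csf3r, which is in this list too, at -0.01. C/EBPε, the factor of secondary granule genes, is encoded by Cebpe, which had 7 and 2 reads in Id2+/+ replicates 1 and 2 and 14 and 11 in Id2Δ/Δ replicates 1 and 2 and was under the filter. Gfi1 and Spi1, which encode a repressor needed for neutrophils and PU.1, were the 2 of 13 regulators with the library order of the late genes, beside 3.29% of tested genes. They were named after their values were seen and differed by -0.26 and -0.08. Spi1 ranged only from 5.98 to 6.23 log2 CPM. Among tested markers, the order was also found in 1 of 16 of HSCs and 1 of 8 of progenitors and gates. It was found in 1 of 5 monocyte and macrophage markers and 1 of 3 eosinophil, basophil and mast cell markers. Of 6 mature neutrophil genes, 0 had it. A link of Gfi1 and Spi1 to the late genes was not tested. Of 8 tested progenitor and gate markers, 6 were higher in replicate 1 of both genotypes, beside 26.1% of tested genes. Replicate 1 exceeded replicate 2 by a median of 0.32 in Id2+/+ and 0.35 in Id2Δ/Δ HSCs on the log2 scale. Between genotypes 0 of these markers passed an unadjusted p of 0.05, with a median of -0.07. Cd34, Emb and Flt3 led that list, at differences of -0.03, -0.07 and -0.07. Of the 16 HSC markers, 0 were higher and 4 lower at an unadjusted p under 0.05, beside 1.72% and 2.95% of tested genes, with a median of -0.06. Kit, the receptor for stem cell factor, and Meis1, a homeobox factor of HSCs, were among the most abundant and differed by -0.63 and -0.20. Kit was 1 of the 4 lower markers and Meis1 was not.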

How the data were processed

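RNA was read from 2 Id2+/+ and 2 Id2Δ/Δ libraries of sorted, pooled HSCs, grouped by their labels. The authors deposited log2 CPM values for 19354 genes. The unit was read from the values, whose columns sum to 999980 to 999996 CPM. The 4 sorted columns lie within 0.1 of each other at 88.4% of ranks, a pattern that quantile normalization leaves. The submitters' processing notes name CASAVA 1.8.4, Trimmomatic 0.30, TopHat2 2.0.8, RSEM, STAR, mm9 and NCBIM37, without roles. The strand setting and the gene filter are not given in the sources used here, and every gene had at least 4 reads in its second-highest library. Quantile normalization forces equal distributions on the libraries. The columns left unused numbered 0, and the single-cell libraries were not analysed here.

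Within a library the rank of a distinct value below 40 CPM was taken as its reads, and depth followed from these. Depth sets a floor of 3 reads, 0.159 to 0.212 CPM; intervals and floors cover counting error only. Values were used as deposited on the log2 scale, with no pseudocount. The 15895 genes averaging 1 CPM or more entered limma 3.58.1 under R 4.3.3 (lmFit and eBayes, trend on intensity, genotype alone in the model, two-sided p-values adjusted by Benjamini-Hochberg), after the scripts were tested on simulated data. A difference is Id2Δ/Δ minus Id2+/+. Tables and plots used Python 3.11.15.

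GENCODE M21 (GRCm38) gave coordinates, lengths and overlaps, with 99.7% of genes matched by identifier (82.0% with the same version), and promoters are from RefSeq, with all 10 members matched. The members, the lists and their order were chosen with earlier results of these data known. The text names all members, from each list the 3 most abundant genes (1 of them is not reported here) and any past the adjusted threshold, the 5 nearest profiles of each group, and Id2; others are said to be named after their values were seen, or serve as overlaps and factors. Alternatives varied the pseudocount, filter, scaling, trend, replicate number, transcript length and libraries. Unnormalized reads, single replicate numbers and leaving out Ctsg or Prtn3 were added after seeing the data.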

Additional observations from a re-analysis of the deposited data

How the results depend on the processing

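The signs of the late median, the primary median and the rise of primary over late genes held under every alternative run. With each library left out in turn, where a lone library was assumed to vary like the other genotype, the late median ranged from -2.74 to -0.10, the primary median from 0.20 to 1.78 and the rise from 1.79 to 3.74. In those fits 0 to 3 members had an unadjusted p under 0.05 in limma, beside 1.23% to 15.8% of tested genes, and the members whose libraries did not overlap numbered 2 to 9, beside 59.9% to 77.1% of tested genes, since fewer libraries overlap less. With no filter 1 member had an unadjusted p under 0.05, Ctsg, and with a minimum of 10 CPM 0 members did not overlap, because Ctsg is left out. With the replicate number as a term (replicate block), 5 members had an unadjusted p under 0.05 (Elane, S100a8, S100a9, Camp and Ngp), beside 5.82% of tested genes, and 1 gene, no member, passed the adjusted threshold; the replicate block with length correction gave 5 and 1 as well, beside 5.34%. The numbers share only a name in the labels, and deviations of same-numbered libraries correlated at 0.06 across tested genes, which are not independent replicates. Over all 14 fits the lowest adjusted p of a member was 0.267, for Mpo without Id2Δ/Δ replicate 2. Signs that turned belonged to single genes. Prtn3 came to -0.0059 with the length correction, with or without the replicate block, to -0.037 in the replicate 2 libraries alone, and to -0.13 to 0.25 with a library left out. Mpo was -0.18 in the replicate 2 libraries alone and -0.32 to 1.61 with a library left out. With a library left out, S100a8 ranged from -2.45 to 0.26, Ltf from -1.57 to 0.084 and Lcn2 from -3.40 to 0.47. Elane, Camp, Ngp and S100a9 kept their direction in every alternative run, but with a library left out came as near to 0 as 0.53, -0.27, -0.09 and -0.20. For these changes with a setting, the cause was not tested unless stated. Depth limits Ctsg, Lcn2 and Camp, which had 1 to 7 reads in their lowest library, and 2 libraries per genotype limit every test.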

Other observations

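Markers of other blood cells were read in the same libraries. Prss34, a basophil protease named after its values were seen, had 0 reads in both Id2+/+ libraries and 143 and 6 in Id2Δ/Δ replicates 1 and 2. It passed the filter only through the Id2Δ/Δ libraries, where it is high, so no test of it is given. Id2Δ/Δ replicate 1 had the most reads of Prss34 as well as of Mpo and Elane, but the rest of the list did not peak there. Of its 12 genes, 8 had no row. Cpa3 had 81 and 46 reads in Id2+/+ replicates 1 and 2 and 59 and 48 in Id2Δ/Δ replicates 1 and 2. Fcer1a had 8, 0, 5 and 15 reads in that order, and Gata2 was lowest in Id2Δ/Δ replicate 1, at 8.49 log2 CPM. A link of Prss34 to Mpo and Elane was not tested. The other 2 tested eosinophil, basophil and mast cell markers, Gata2 and Cpa3, differed by 0.00 and -0.41, and 0 of them had an unadjusted p under 0.05 in limma. In that fit 1.72% of all tested genes were higher and 2.95% lower at such a p, which is the background of the counts that follow. Of 8 erythroid markers, 0 passed in either direction, with a median of -0.25, and Car2, Epor and Hbb-bt led the list at -0.11, 0.30 and 0.12. Of 3 tested B-cell markers 1 was lower, Cd74 at -0.46, while Cd79b and Vpreb1 differed by 0.24 and 0.03. Of 6 megakaryocyte markers 1 was higher, Pf4 at 0.65, with Itga2b and Gp9 at 0.06 and 0.37. Of 2 tested T-cell markers, Lck and Cd4, 0 passed, at 0.02 and 0.15. The adjusted threshold was passed by 0 genes of these lists.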
